A study of Mus musculus with 74 samples.

Results

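The genes described here are the potassium channel genes of the mouse, taken as every gene whose symbol begins with Kcn in the deposited count tables. There were 76 of them among the 17853 genes listed in at least 1 of the 6 tables, and 45 of the 76 stood in all 6 tables, which shared 14637 genes. By symbol, 29 were voltage-gated channel genes (Kcna to Kcnd, Kcnf to Kcnh, Kcnq and Kcns), 14 were inward rectifiers (Kcnj), 8 were two-pore channels (Kcnk) and 7 belonged to the families Kcnma, Kcnn, Kcnt and Kcnu, most of them opened by calcium or sodium ions. Another 15 encode auxiliary proteins (Kcnab, Kcne, Kcnip and Kcnmb), and 3 symbols fall in none of these classes (Kcnmb4os2, Kcnq1ot1 and Kcnrg).

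The libraries were made by MARS-seq, a method that counts tags at the 3' end of polyadenylated RNA, from sorted mTEChi cells, the mature medullary epithelial cells of the thymus, of mice aged 4 to 7 weeks. The question put to them was how alleles of Aire, some of them acting in heterozygotes, alter expression in these cells. On the B6 (C57BL/6) background there were 4 lines, each with its own table and its own wild types. The null line had 3 wild-type, 5 Aire+/- and 4 Aire-/- libraries; the Y86C line had 3 wild-type, 3 +/Y86C and 3 Y86C/Y86C libraries. The line of the stop allele C313X had 3 wild-type, 2 +/C313X and 3 C313X/C313X libraries; the C442G line had 3 wild-type, 5 +/C442G and 6 C442G/C442G libraries. On the NOD background, the V303M line had 3 wild-type, 3 +/V303M and 3 V303M/V303M libraries. A further NOD table compared 3 Aire-/- with 3 Aire+/- libraries. It also held 4 +/C313Y libraries, set against 5 wild types (2 of them, numbers 45 and 47, carry C313T in their titles), and 3 -/C313Y libraries, with C313Y over a null allele, set against 3 wild types. Nothing in the labels says how many animals stand behind a library. P-values therefore measure the spread between these libraries.

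Potassium channels are membrane proteins with a pore that passes potassium ions and so sets the resting potential of a cell and ends electrical activity. Voltage-gated members open when the membrane depolarises, inward rectifiers pass current best near the resting potential, and two-pore channels carry a steady leak current. Auxiliary subunits such as those of the Kcne and Kcnmb families bind to the pore proteins and alter their gating. In the medulla of the thymus, AIRE is known as the regulator that lets epithelial cells transcribe many genes otherwise restricted to single tissues, which exposes their products to developing T cells.

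Library totals ran from 1016619 to 7225403 counts with a median of 2675551.5, so that 3 counts in a library, the upper limit that a count of 0 allows, correspond to between 0.415 and 2.95 CPM (counts scaled to the same total in every library). The tables listed only genes that reached 6 counts in some library. All 73 assigned libraries contained Aire tags, at 1602 to 4758 CPM. In the null line Aire was higher in Aire-/- (3162 ± 364 CPM, SD, n = 4) than in wild type (2125 ± 79.4 CPM, n = 3; log2 change 0.68 ± 0.14 SE, edgeR adjusted p = 0.00197), and 3' tags do not check whether the null allele is deleted elsewhere. The labelled cell type had its defining antigen-presentation genes throughout, with H2-Aa at 8282 to 27617 CPM and Cd74 at 8705 to 24517 CPM, while Psmb11, which marks cortical epithelium, stayed at or below 8.28 CPM. The whole cortical list summed to 360 to 1104 CPM with a median of 565 CPM. Markers of other cells were present as well. Their summed levels over the 73 libraries were 35.6 to 231 CPM for thymocytes, 380 to 1546 CPM for macrophages and dendritic cells, 25.3 to 407 CPM for fibroblasts and endothelium, and 29.7 to 805 CPM for tuft cells.

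The highest mean over the 7 wild-type groups was that of the inward rectifier Kcnj15, at 171 CPM (group means 133 to 226 CPM). Next came Kcnip3, which encodes a calcium-binding partner of voltage-gated channels, at 132 CPM, the two-pore channel Kcnk6 at 115 CPM and the voltage-gated Kcnh3 at 107 CPM. The ranges of the group means of these 4 genes overlapped, so these ranges do not rank all of them. Within each wild-type group, however, the mean of Kcnj15 lay above those of Kcnk6 and Kcnh3. The large-conductance calcium-activated pore Kcnma1 (41.2 CPM) and the voltage-gated Kcnq1 (38.6 CPM) followed, ahead of Kcnmb4 (25.4 CPM), Kcnn4 (18.0 CPM), Kcna2 (17.6 CPM) and Kcnk5 (14.1 CPM). Kcnip3 lay above Kcnj15 in 3 of the 4 B6 wild-type groups (182 against 171 CPM in the null line, 198 against 133 CPM in C313X and 166 against 145 CPM in C442G). It also lay higher in the B6 wild types (group means 134 to 198 CPM) than in the NOD wild types (70.7 to 92.1 CPM). The B6 and NOD libraries stand in separate tables, and the labels do not say whether they were prepared together. CPM of 3' tags are not divided by transcript length.

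Summed over all members, the potassium channel genes made up 995 ± 22.6 CPM in B6 wild types of the null line (n = 3) and 859 ± 14.7 CPM in Aire-/- (n = 4). The sums also lay lower in Y86C/Y86C (867 ± 16.9 CPM, against 1008 ± 64.4 CPM in wild type) and in C313X/C313X (788 ± 28.2 CPM, against 893 ± 50.3 CPM), n = 3 in each of these 4 groups. In C442G/C442G the sum was 776 ± 31.8 CPM (n = 6) against 870 ± 47.2 CPM (n = 3). In CPM, the ranges of mutant and wild type did not overlap in any of these 4 lines. On the NOD background the sum in -/C313Y lay higher, at 841 ± 22.3 CPM against 810 ± 14.7 CPM (n = 3 each), without overlap. It was 872 ± 80.7 CPM in +/C313Y (n = 4) against 849 ± 120 CPM in its wild types (n = 5), 836 ± 45.5 CPM in NOD Aire-/- against 867 ± 22.4 CPM in Aire+/-, and 802 ± 84.9 CPM in V303M/V303M against 866 ± 47.8 CPM (n = 3 in each of these last 4 groups), with overlap in all 3. The sums were not put to a test. CPM are scaled to library totals alone, whereas the fits below also use TMM normalisation factors. In Y86C/Y86C, C313X/C313X and C442G/C442G, fitted log2 changes lay above those of the CPM means, for Kcnh3 for example. The lower sums in these lines may therefore not hold on the scale of the fits.

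Gene by gene, members were tested with edgeR's quasi-likelihood test in a fit of all groups of a table, and a member was called higher or lower at a Benjamini-Hochberg adjusted p below 0.05 over all genes tested in that table. Between 28 and 42 members passed the filter on low counts in a table; 47 passed in at least 1, and 29 in none. A rare transcript passes this filter only through the group in which it is high, so the counts below describe the tested members and support nothing about the other members. In bulk RNA, fewer cells of a type and less RNA per cell cannot be told apart.

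In B6 Aire-/- cells 7 members rose and 9 fell of 28 tested, which is 57.1%, beside 36.6% of all 12700 genes tested (17.7% higher and 18.9% lower). In Y86C/Y86C 8 rose and 17 fell of 33, which is 75.8%, beside 49.6% of all genes (21.7% higher and 27.9% lower). In C442G/C442G 7 rose and 14 fell of 35, which is 60.0%, beside 42.6% (19.5% higher and 23.1% lower). In C313X/C313X 4 rose and 14 fell of 38, which is 47.4%, beside 23.1% (7.85% higher and 15.2% lower), and without homozygote 1 the count there was 11. The median log2 change of the tested members was -0.12 in Aire-/-, -0.73 in Y86C/Y86C, -0.59 in C313X/C313X and -0.27 in C442G/C442G, where the medians of all genes lay between -0.03 and 0.00. Without a filter on low counts, 42 members were called in Y86C/Y86C.

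**Figure D1:**
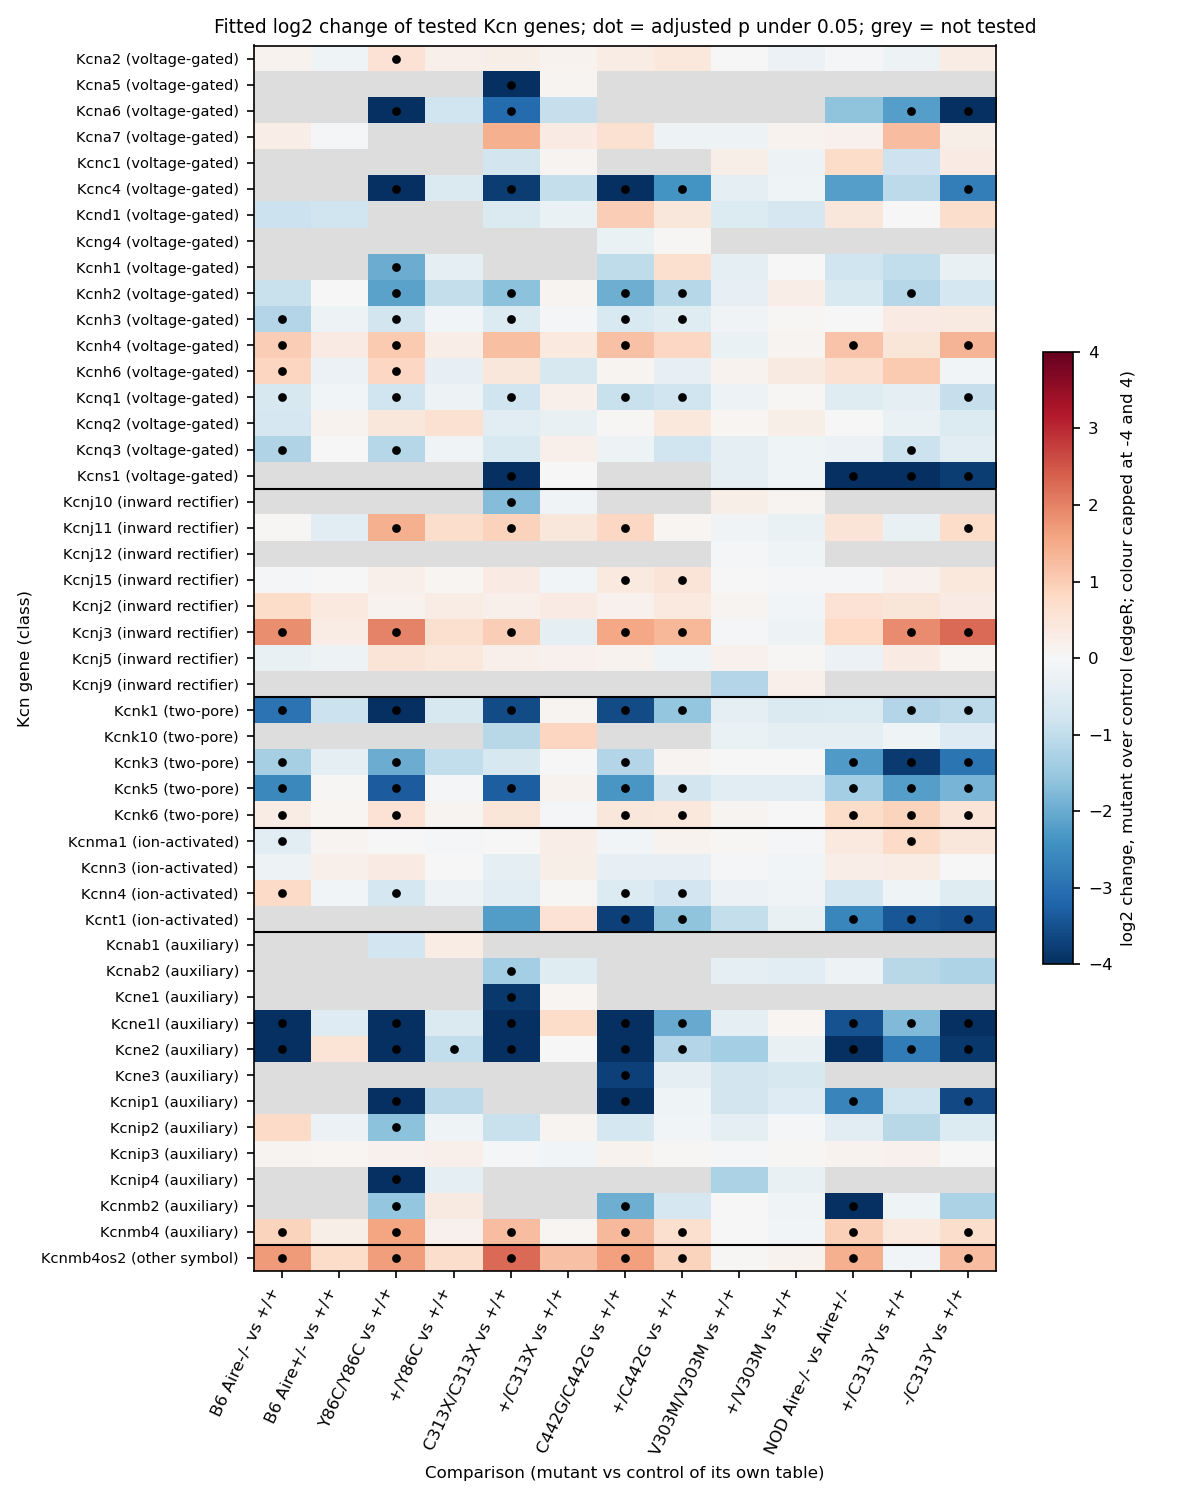
Fitted log2 change (colour, edgeR, capped at -4 and 4) of each potassium channel gene tested at least once (vertical axis, grouped by class) in the 13 comparisons (horizontal axis), with a dot where the adjusted p was below 0.05 and grey where the gene was not tested. Kcne2, Kcne1l and Kcnk5 are blue with a dot in all 4 B6 homozygous comparisons, Kcnj3 and Kcnmb4 are red with a dot there, and the V303M columns hold no dot.

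Of the two-pore genes tested, 1 rose and 3 fell of 4 in Aire-/- (median log2 change -1.95), in Y86C/Y86C (median -2.66) and in C442G/C442G (median -1.76), and 2 of 5 fell in C313X/C313X (median -1.10). Inward rectifiers had 1 higher and 0 lower calls of 5 tested in Aire-/- (median 0.04), 2 and 0 of 5 in Y86C/Y86C (median 0.52), 3 and 0 of 5 in C442G/C442G (median 0.40), and 2 and 1 of 6 in C313X/C313X (median 0.27). Voltage-gated genes had 2 higher and 3 lower calls of 10 in Aire-/-, 3 and 7 of 11 in Y86C/Y86C, 0 and 7 of 15 in C313X/C313X, and 1 and 4 of 13 in C442G/C442G, with medians from -0.79 to -0.21. Auxiliary genes had 1 higher and 2 lower calls of 5 in Aire-/-, and 1 higher beside 4 to 6 lower calls of 7 to 9 in the other 3 lines. Setting the members with no count in a mutant at their bounds would leave these medians where they are. Inward rectifiers had 1 of 5 called in Aire-/- and 2 of 5 in Y86C/Y86C, shares below the 36.6% and 49.6% of all genes. Voltage-gated genes had 38.5% called in C442G/C442G, below the 42.6% of all genes. These counts are therefore not a result about either class. No test compared one class with another.

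**Figure D2:**
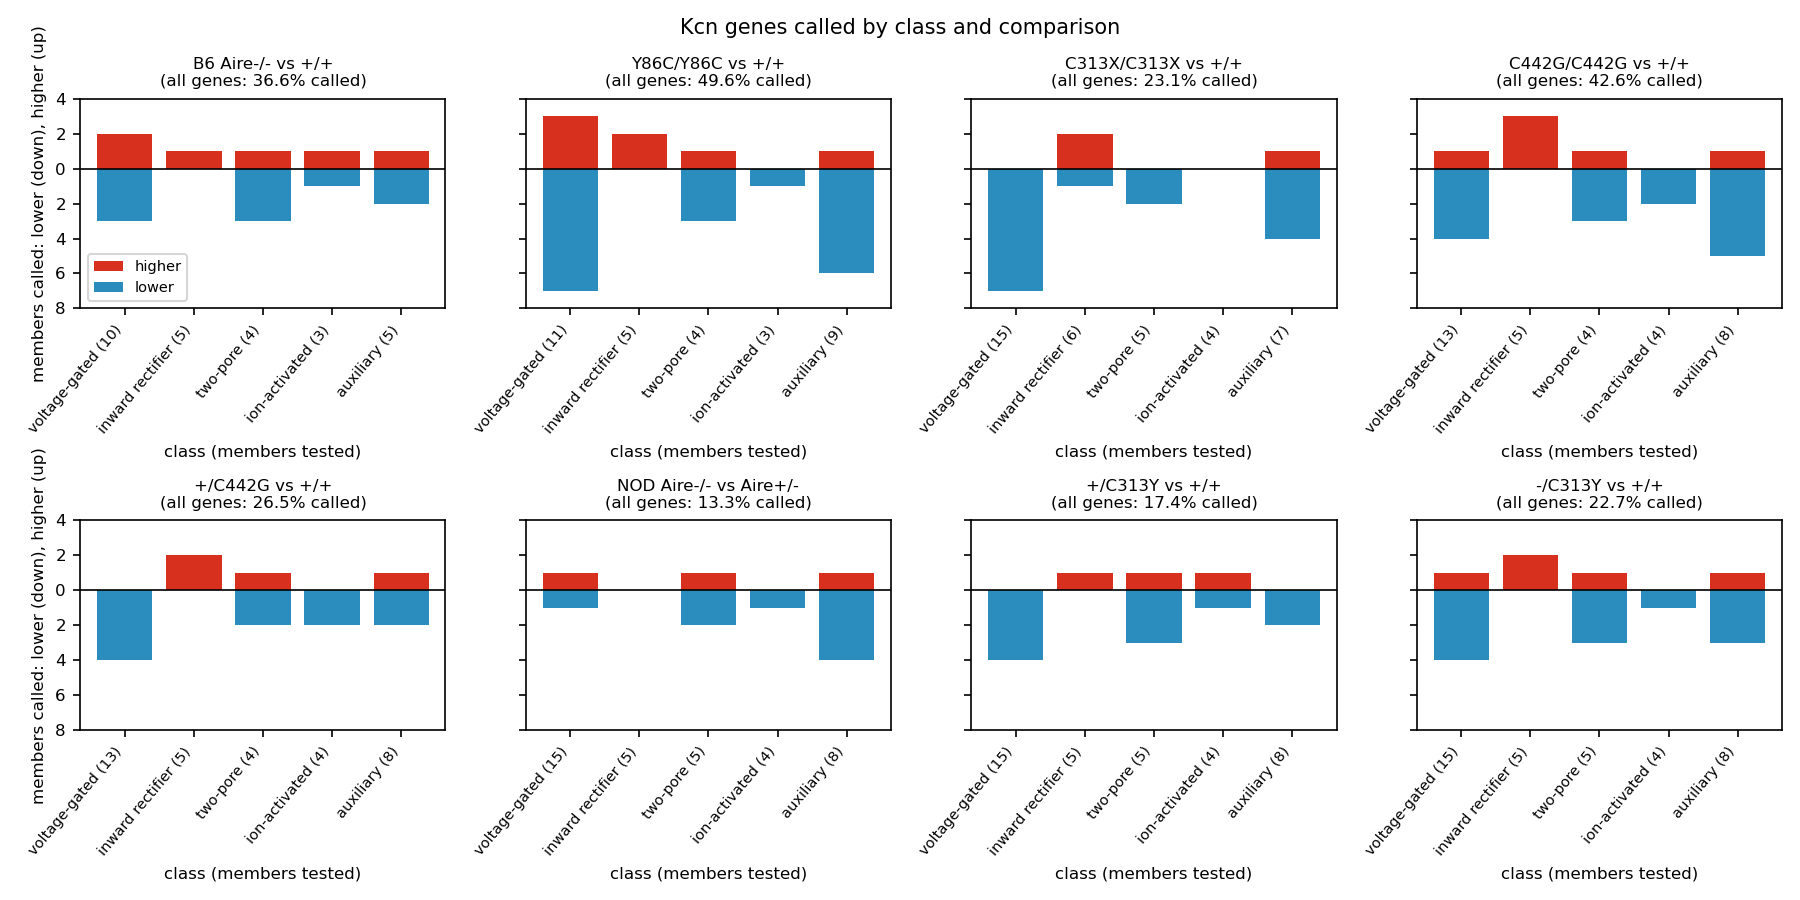
Number of potassium channel genes called higher (red, upward) or lower (blue, downward) at an adjusted p below 0.05 (vertical axis) by class (horizontal axis, with the number tested in brackets) in 8 comparisons; each panel title gives the share of all genes called. Among inward rectifiers 1 lower call appears, in C313X/C313X, whereas two-pore genes have both directions in 7 of the 8 panels and only lower calls in C313X/C313X.

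Called the same way in all 4 B6 homozygous comparisons were 9 members. Kcnj3, Kcnmb4 and Kcnmb4os2 were higher, and Kcne2, Kcne1l, Kcnk1, Kcnk5, Kcnh3 and Kcnq1 were lower. The 250 bases before the start given by RefSeq are shown for 2 genes that fell and 2 that rose, since the number of CpG dinucleotides in them ranged from 7 to 43. They are RefSeq sequences of GRCm38.p6, written from 5′ to 3′ on the strand of the gene, and capitals mark each CG. The windows lie at chr16:92292139-92292388 (+ strand) for Kcne2 and at chr14:20181783-20182032 (- strand) for Kcnk5. Those of Kcnj3 and Kcnmb4 lie at chr2:55435720-55435969 (+ strand) and chr10:116473524-116473773 (- strand). The gene spans printed with the results come from another annotation, GENCODE, by which the window of Kcnmb4 lies inside Kcnmb4 and that of Kcnk5 overlaps the first part of Kcnk5.
Kcne2: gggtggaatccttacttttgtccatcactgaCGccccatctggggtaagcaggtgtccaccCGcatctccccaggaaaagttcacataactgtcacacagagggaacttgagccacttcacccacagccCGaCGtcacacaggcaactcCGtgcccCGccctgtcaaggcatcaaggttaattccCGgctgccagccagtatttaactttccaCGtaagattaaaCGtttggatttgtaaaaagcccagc
Kcnk5: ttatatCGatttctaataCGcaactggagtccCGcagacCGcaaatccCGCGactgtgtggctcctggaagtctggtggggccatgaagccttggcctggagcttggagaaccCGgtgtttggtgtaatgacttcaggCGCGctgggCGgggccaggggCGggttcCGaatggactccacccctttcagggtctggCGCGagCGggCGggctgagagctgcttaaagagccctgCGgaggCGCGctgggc
Kcnj3: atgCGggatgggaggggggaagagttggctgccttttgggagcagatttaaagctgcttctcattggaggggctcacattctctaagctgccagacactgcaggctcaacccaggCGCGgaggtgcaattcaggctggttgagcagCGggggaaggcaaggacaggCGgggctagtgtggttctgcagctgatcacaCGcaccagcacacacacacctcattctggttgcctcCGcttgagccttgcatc
Kcnmb4: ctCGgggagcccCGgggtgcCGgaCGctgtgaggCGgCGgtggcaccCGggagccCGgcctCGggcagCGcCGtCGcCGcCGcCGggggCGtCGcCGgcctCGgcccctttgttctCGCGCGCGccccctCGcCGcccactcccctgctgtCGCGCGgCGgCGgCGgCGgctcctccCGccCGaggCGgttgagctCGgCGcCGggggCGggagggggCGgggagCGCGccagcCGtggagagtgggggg

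The window of Kcne2 held 9 CG and that of Kcnk5 19, against 7 for Kcnj3 and 43 for Kcnmb4, so within these 4 genes the CG count did not separate those that fell from those that rose. Windows from 250 bases before to 50 after the start were found for 58 of the 76 members, with a median of 9 CpG beside 7 over 27025 windows of all genes. The median was 23 for the 7 windows of members called only higher, 12 for the 17 of members called only lower, and 9 for the 21 of members never tested. A TATAAA or TATATA on the strand of the gene was found in 6 of the 58 windows (10.3%), beside 13.2% of all windows. None of the windows of members called only higher or only lower held either motif, nor did the 9 windows of members tested but not called. Of the 5 windows of members lower in B6 Aire-/-, 1 held a motif, that of Kcnma1, which was called both ways over the comparisons. These counts say only which windows hold these letters.

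Kcne2 encodes a small auxiliary subunit that pairs with Kcnq1 in the acid-secreting cells of the stomach and in the thyroid. The gene lies at chr16:92292389-92298129, 47852 bp from its relative Kcne1. It was at 6.93, 4.73 and 5.15 CPM in the wild types of the null line and at 0.376, 0.401, 0 and 0 CPM in the Aire-/- libraries. The wild types were all above the Aire-/- libraries, and the fitted log2 change was -4.48 ± 0.74 SE (edgeR adjusted p = 1.54e-05). Only 2 counts stood behind the Aire-/- group, and the ratio of wild type to Aire-/- was 31.1 with a 95% counting interval of 8.03 to 267, which covers counting error only, as do all such intervals here.

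The Y86C wild types held 19.9, 25.3 and 20.6 CPM of Kcne2, the +/Y86C libraries 13.5, 10.7 and 8.90 CPM, and the Y86C/Y86C libraries 0.277, 0.294 and 0 CPM. The 3 genotypes did not overlap. The ratio of wild type to Y86C/Y86C was 99.7 (counting interval 27.2 to 830; adjusted p = 1.1e-12 with edgeR). In C313X/C313X Kcne2 was at 0, 0.319 and 0 CPM against 7.36, 8.89 and 8.46 CPM in wild type, with a ratio of 84.9 from 1 count (14.7 to 3406; edgeR adjusted p = 0.00019). In C442G/C442G 4 of 6 libraries had no count and the highest had 0.281 CPM, against 7.99, 7.38 and 9.11 CPM in wild type (ratio 81.1 from 2 counts, 21.5 to 686; edgeR adjusted p = 7.49e-10). Every B6 homozygous group thus lay below its own wild types with no overlap.

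Kcne1l, an older symbol of Kcne5, encodes another member of the Kcne subunit family and lies on the X chromosome at chrX:142304752-142306294. It was at 14.2, 11.8 and 10.3 CPM in wild type and at 1.13, 0, 1.03 and 0.276 CPM in Aire-/-. The groups did not overlap and the log2 change was -4.21 ± 0.49 SE (edgeR adjusted p = 4.99e-08). In Y86C/Y86C it was at 0, 0.294 and 0 CPM against 13.8, 15.0 and 15.7 CPM, a ratio of 133 from 1 count (counting interval 23.5 to 5316; edgeR adjusted p = 7.11e-11). It fell as well in C313X/C313X (log2 change -4.75 ± 0.67 SE, edgeR adjusted p = 0.000675) and in C442G/C442G (-4.81 ± 0.54 SE, edgeR adjusted p = 1.22e-08).

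Kcnmb4 encodes the beta subunit that slows the large-conductance calcium-activated channel, whose pore is Kcnma1. It was at 21.5, 21.3 and 30.4 CPM in wild type and at 42.8, 48.1, 41.6 and 36.2 CPM in Aire-/-. All Aire-/- libraries were above all wild types, and the log2 change was 0.89 ± 0.17 SE (edgeR adjusted p = 0.000139). The change was 1.57 ± 0.15 SE in Y86C/Y86C (edgeR adjusted p = 5.23e-10), where the libraries held 43.2, 47.03 and 45.9 CPM against 18.2, 18.9 and 17.04 CPM. In C313X/C313X it was 1.23 ± 0.22 SE and in C442G/C442G 1.29 ± 0.17 SE (edgeR adjusted p = 0.00255 and 2.76e-07).

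Kcnmb4os2, a transcript antisense to Kcnmb4 at chr10:116473163-116475319, rose beside it. It was at 2.92, 4.14 and 5.67 CPM in wild type and at 12.4, 16.8, 10.3 and 11.3 CPM in Aire-/- (log2 change 1.71 ± 0.37 SE, edgeR adjusted p = 0.000459). The log2 changes in the other 3 homozygous groups were 1.66 ± 0.25 SE in Y86C/Y86C, 2.26 ± 0.35 SE in C313X/C313X and 1.64 ± 0.26 SE in C442G/C442G. It shares 716 bp with the first part of Kcnmb4 on chr10:116417861-116473878, and the printed window of Kcnmb4 lies inside both genes. The shared stretch is the first part of both genes, away from their 3' ends, where their tags would lie. How the counting used strand is not given in the sources used here, so any reads from the shared stretch cannot be told apart. The pore itself, Kcnma1, fell in Aire-/- by a smaller amount (46.6 ± 2.85 CPM in wild type, n = 3, against 32.9 ± 4.92 CPM, n = 4; log2 change -0.41 ± 0.14 SE, edgeR adjusted p = 0.0271) and was not called in the other 3 B6 homozygous groups.

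The remaining auxiliary genes were rarer. Kcnip1, a partner of voltage-gated channels, fell in Y86C/Y86C (ratio of wild type to mutant 23.2 from 3 counts, counting interval 7.57 to 116) and in C442G/C442G (35.6 from 2 counts, 8.87 to 310). Its relative Kcnip4 fell in Y86C/Y86C with a ratio of 46.9 from 1 count (7.93 to 1898). Kcnip3, by contrast the most abundant auxiliary gene, was not called in any of the 13 comparisons. It was at 164 to 197 CPM in wild type and at 144 to 203 CPM in Aire-/- (log2 change 0.09 ± 0.11 SE, edgeR adjusted p = 0.527).

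**Figure D3:**
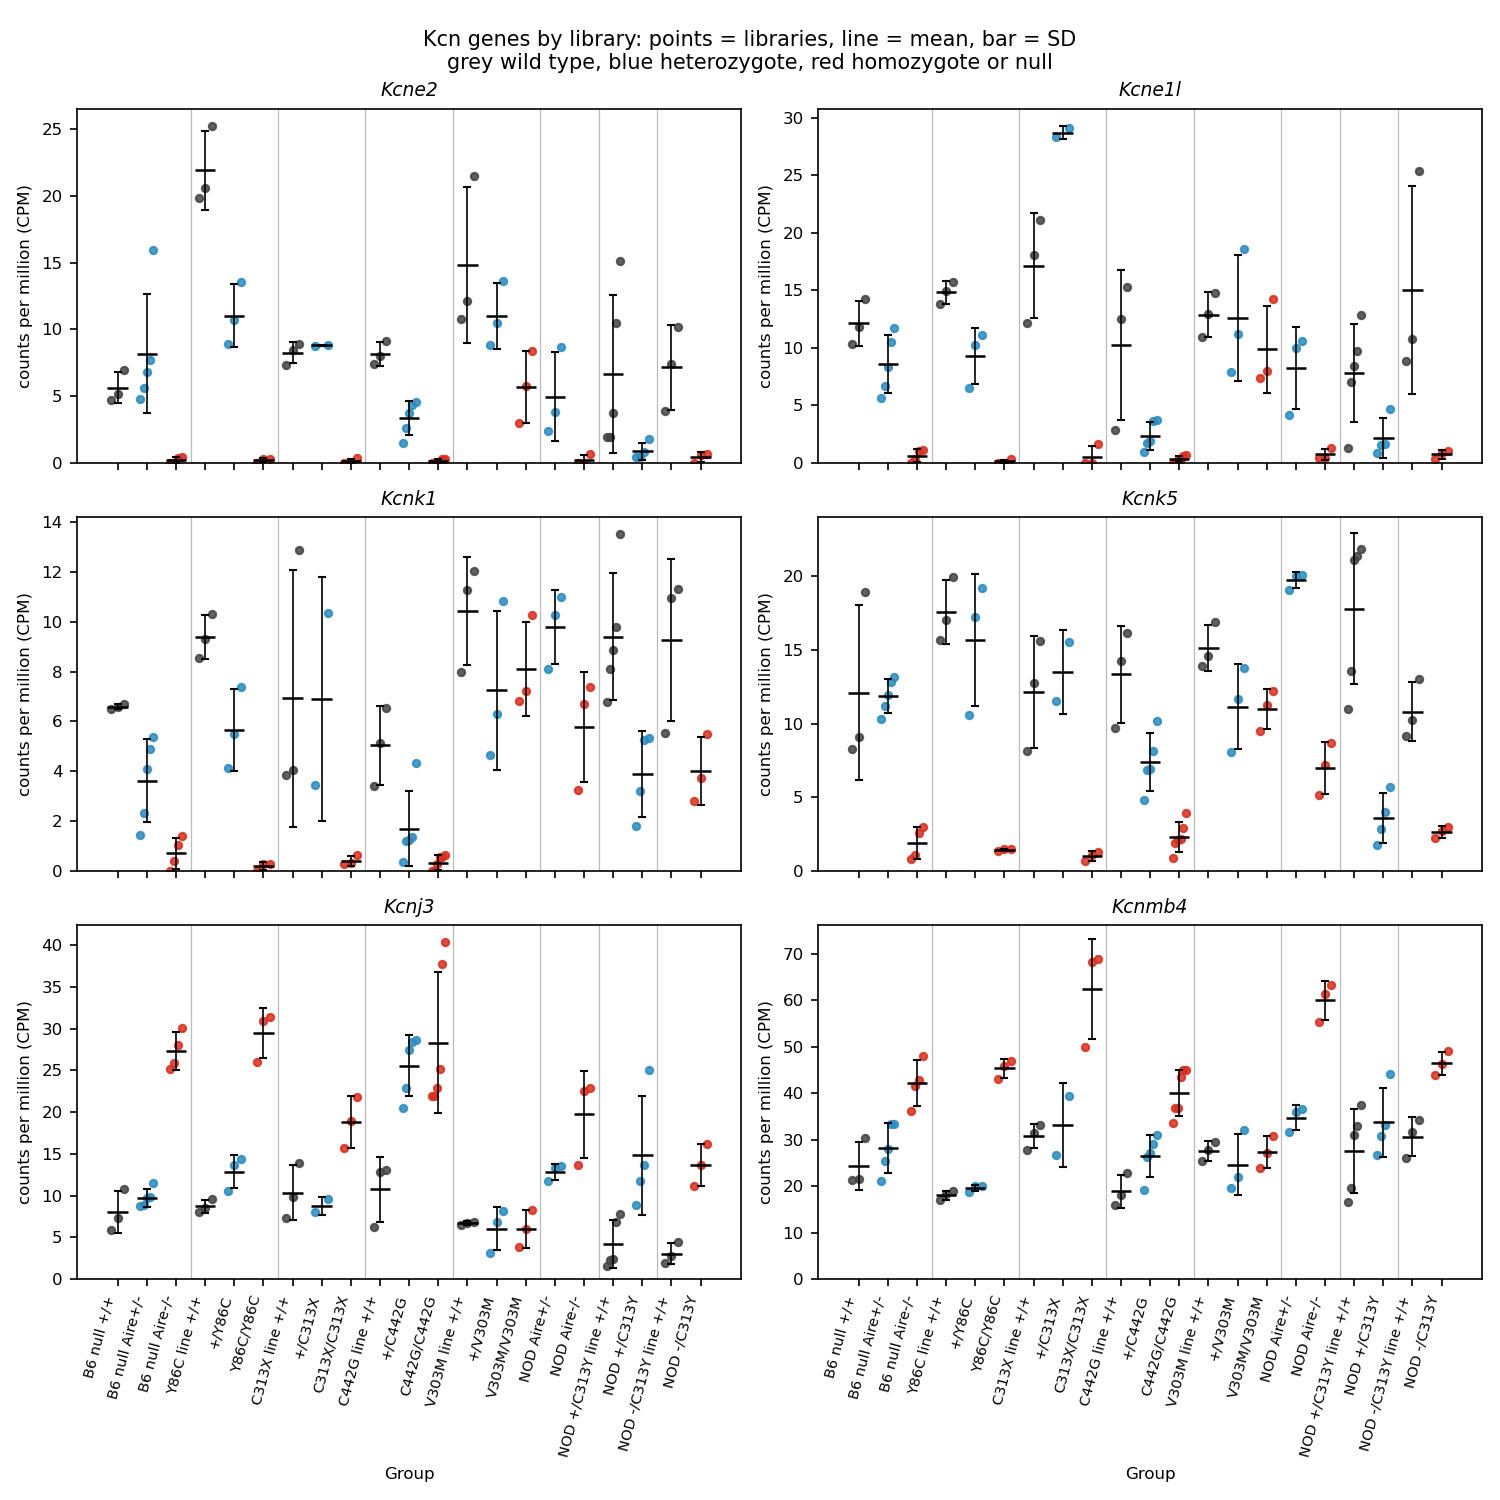
CPM (vertical axis) of Kcne2, Kcne1l, Kcnk1, Kcnk5, Kcnj3 and Kcnmb4 in every assigned library (points) by group (horizontal axis), with the group mean (line) and SD (bar); wild types are grey, heterozygotes blue, and homozygotes, null and -/C313Y red. In the panel of Kcne2 the red points of the 4 B6 lines sit near 0, below every wild type of the same line, and those of V303M/V303M lie between 2.98 and 8.36 CPM.

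Among two-pore channels, Kcnk5 encodes an acid-sensitive leak channel known from kidney epithelium and lies at chr14:20140057-20181809. It was at 9.12, 18.9 and 8.24 CPM in wild type and at 3.01, 0.802, 2.57 and 1.11 CPM in Aire-/-. The groups did not overlap, and the log2 change was -2.58 ± 0.39 SE (edgeR adjusted p = 5.23e-06). It was at 1.38, 1.47 and 1.50 CPM in Y86C/Y86C against 17.02, 19.9 and 15.7 CPM in wild type, a log2 change of -3.33 ± 0.34 SE (edgeR adjusted p = 1.21e-09). In C313X/C313X the change was -3.30 ± 0.43 SE and in C442G/C442G -2.32 ± 0.30 SE, again with no overlap.

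Kcnk1 encodes a weakly inwardly rectifying leak channel (chr8:125995170-126030685). It was at 6.56, 6.51 and 6.70 CPM in wild type and at 0, 0.401, 1.03 and 1.38 CPM in Aire-/-. Every Aire-/- library lay below the wild types, and the log2 change was -2.96 ± 0.58 SE (edgeR adjusted p = 0.000153). In Y86C/Y86C only 2 counts were left, and the ratio of wild type to mutant was 42.1 (counting interval 11.2 to 354; edgeR adjusted p = 1.9e-08). The log2 change was -3.59 ± 0.79 SE in C313X/C313X and -3.59 ± 0.59 SE in C442G/C442G (edgeR adjusted p = 0.00732 and 6.75e-06).

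Kcnk3, another acid-sensitive leak channel, fell in Aire-/- from 13.1, 4.73 and 6.70 CPM to 2.63, 2.81, 3.60 and 3.59 CPM (log2 change -1.32 ± 0.38 SE, edgeR adjusted p = 0.00635). The highest wild type, titled Aire_wt_430, decided this call: without it the adjusted p was 0.223. Kcnk3 also fell in Y86C/Y86C (log2 change -2.00 ± 0.55 SE, edgeR adjusted p = 0.00315) and in C442G/C442G (-1.19 ± 0.43 SE, edgeR adjusted p = 0.0247). The abundant Kcnk6, a leak channel of endosomes and lysosomes, went the other way by a small amount. It was at 106, 114 and 120 CPM in wild type and at 126, 126, 148 and 122 CPM in Aire-/-, ranges that lie side by side without overlap (log2 change 0.30 ± 0.10 SE, edgeR adjusted p = 0.0176). It rose by 0.57 ± 0.10 SE on the log2 scale in Y86C/Y86C and by 0.45 ± 0.11 SE in C442G/C442G.

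Among inward rectifiers, Kcnj3 encodes a subunit of the channel that G proteins open in heart and brain, and lies at chr2:55435970-55598145. It was at 7.29, 5.92 and 10.8 CPM in wild type, 9.74, 9.82, 8.77, 11.5 and 8.89 CPM in Aire+/- and 25.9, 28.1, 25.2 and 30.1 CPM in Aire-/-. The Aire-/- libraries were all above the other 2 genotypes, which overlapped (log2 change of Aire-/- over wild type 1.87 ± 0.22 SE, edgeR adjusted p = 6.38e-08). In Y86C/Y86C Kcnj3 was at 26.01, 30.9 and 31.4 CPM against 8.51, 9.61 and 8.07 CPM in wild type (log2 change 1.97 ± 0.20 SE, edgeR adjusted p = 1.35e-09). It was at 21.9 to 40.4 CPM with a median of 24.01 CPM in C442G/C442G against 6.28, 12.8 and 13.1 CPM (1.56 ± 0.24 SE, edgeR adjusted p = 5.44e-06). The smallest change was in C313X/C313X, at 18.9, 15.6 and 21.8 CPM against 7.36, 13.9 and 9.81 CPM (0.99 ± 0.28 SE, edgeR adjusted p = 0.0249). That call was lost without wild type 2, wild type 7, homozygote 1 or homozygote 14 (adjusted p 0.056 to 0.084).

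Kcnj11 encodes the pore of the ATP-sensitive channel known from insulin-secreting cells. In Aire-/- it did not pass the test, at 13.5, 13.2, 14.4 and 11.9 CPM against 12.8, 14.8 and 13.9 CPM in wild type (log2 change 0.04 ± 0.22 SE, edgeR adjusted p = 0.905). In Y86C/Y86C it was at 14.4, 16.8 and 9.98 CPM against 6.89, 6.41 and 5.38 CPM, all mutants above all wild types (1.41 ± 0.26 SE, edgeR adjusted p = 3.71e-05). It also rose in C442G/C442G (0.82 ± 0.23 SE, edgeR adjusted p = 0.00419), where the ranges overlapped. In C313X/C313X the change was 0.92 ± 0.29 SE (edgeR adjusted p = 0.0429), a call lost without any 1 of wild types 2 and 7 and homozygotes 1, 10 and 14 (adjusted p 0.0845 to 0.124), with DESeq2 (0.0633) and with only the compared groups fitted (0.0654).

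Kcnj15 was at 164 to 180 CPM in wild type and at 130 to 169 CPM in Aire-/- (log2 change -0.03 ± 0.11 SE, edgeR adjusted p = 0.850). It was called only in the C442G line, where it rose in C442G/C442G from 145 ± 13.8 CPM (n = 3) to 168 ± 14.2 CPM (n = 6; log2 change 0.40 ± 0.12 SE, edgeR adjusted p = 0.00582). The ranges overlapped in CPM, at 155 to 188 CPM in C442G/C442G against 130 to 156 CPM in wild type. The fitted change, which uses TMM factors, is larger than that of the CPM means. Kcnj10, an inward rectifier of glia, was the member of its class that fell, in C313X/C313X (3.73 ± 1.18 CPM in wild type against 0.980 ± 0.357 CPM, n = 3 each; log2 change -1.73 ± 0.56 SE, edgeR adjusted p = 0.0457).

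Among voltage-gated genes, Kcnh3, a channel of forebrain neurons, and Kcnq1, the pore that Kcne2 joins, fell in all 4 B6 homozygous groups. Kcnh3 was at 141, 167 and 139 CPM in wild type and at 63.1, 62.5, 70.9 and 50.02 CPM in Aire-/-. These groups were far apart, and the log2 change of -1.19 ± 0.12 SE (edgeR adjusted p = 1.85e-08) was followed by smaller ones in Y86C/Y86C (-0.73 ± 0.12 SE), C442G/C442G (-0.60 ± 0.15 SE) and C313X/C313X (-0.55 ± 0.16 SE, edgeR adjusted p = 0.0332). The last call was lost without wild type 7 or homozygote 1, 10 or 14 (adjusted p 0.0566 to 0.119) and with DESeq2 (adjusted p 0.0567). The gene Mcrs1 overlaps the last kilobase of Kcnh3, where its tags would lie.

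Kcnq1 was at 40.8, 43.2 and 39.2 CPM in wild type and at 19.9, 21.2, 25.7 and 29.6 CPM in Aire-/-, with no overlap (log2 change -0.65 ± 0.16 SE, edgeR adjusted p = 0.00231). The changes were -0.79 ± 0.19 SE in Y86C/Y86C, -0.90 ± 0.20 SE in C442G/C442G and -0.79 ± 0.23 SE in C313X/C313X. In C313X/C313X the call (adjusted p = 0.0282) was lost without wild type 6 or homozygote 1 or 14 (adjusted p 0.0574 to 0.0988).

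Kcnh2, the channel that repolarises the heart, and Kcnc4, a fast channel of neurons, fell in the Y86C, C313X and C442G homozygotes. In the null line Kcnc4 did not pass the filter on low counts and was not tested. It was at 4.56 ± 2.10 CPM in wild type (n = 3) and 0.539 ± 0.756 CPM in Aire-/- (n = 4) there. Kcnh2 had log2 changes of -2.15 ± 0.37 SE in Y86C/Y86C, -1.65 ± 0.32 SE in C313X/C313X and -1.95 ± 0.29 SE in C442G/C442G. Kcnc4 had no count in Y86C/Y86C against 38 in wild type, which makes it at least 15.2-fold lower when the whole mutant group is given 3 counts. In C313X/C313X its ratio was 17.5 from 3 counts (counting interval 5.57 to 88.6), and in C442G/C442G the log2 change was -4.26 ± 0.50 SE. Kcna6 likewise had no count in Y86C/Y86C (at least 16.4-fold lower), and Kcna5 none in C313X/C313X (at least 14.4-fold lower).

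Some voltage-gated genes rose. Kcnh4 was at 8.79 ± 1.88 CPM in Aire-/- (n = 4) against 4.60 ± 1.78 CPM (n = 3) in wild type (log2 change 0.99 ± 0.37 SE, edgeR adjusted p = 0.037). That call was lost without Aire_wt_432, Aire_wt_434, Aire_KO_428, Aire_KO_431 or Aire_KO_436, as these libraries are titled (adjusted p 0.0512 to 0.151), and with DESeq2 (adjusted p 0.0672). Kcnh4 also rose in Y86C/Y86C (1.04 ± 0.28 SE, edgeR adjusted p = 0.00274) and C442G/C442G (1.17 ± 0.32 SE, edgeR adjusted p = 0.00381). Kcnh6 rose in Aire-/- (18.7 ± 2.05 CPM against 10.8 ± 2.24 CPM; log2 change 0.86 ± 0.23 SE, edgeR adjusted p = 0.00328) and in Y86C/Y86C (0.83 ± 0.31 SE, edgeR adjusted p = 0.0269), the latter lost without wild type 1 or 2 or homozygote 5 (adjusted p 0.0795 to 0.116) and with DESeq2 (adjusted p 0.104).

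Markers of other cells moved in some of the same libraries. In Y86C/Y86C all 7 tuft markers tested fell, from a summed 226 to 264 CPM in wild type to 48.4 to 123 CPM, and 4 of 5 fibroblast and endothelial markers fell, from 153 to 186 CPM to 27.9 to 31.0 CPM, with Cdh5 at 0. In B6 Aire-/-, 1 of 7 tuft markers rose and 1 fell (212 to 301 CPM against 153 to 208 CPM), and none of 7 thymocyte markers was called. In C442G/C442G, 2 of 7 tuft markers fell (103 to 189 CPM against 216 to 319 CPM). The summed fibroblast and endothelial level there was 29.1 to 37.9 CPM against 75.9 to 101 CPM (1 of 5 fell), and 45.0 to 55.0 CPM in +/C442G (1 of 5 fell). In +/C313Y it was 25.3 to 62.6 CPM against 73.5 to 172 CPM, and in -/C313Y 33.9 to 53.4 CPM against 88.2 to 139 CPM (2 of 5 fell in each). None of these 4 groups overlapped its wild types. In C313X/C313X the sum ran from 47.3 to 407 CPM, on both sides of the 183 to 198 CPM of wild type, and none of the 5 markers was called.

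The summed level of macrophage and dendritic markers lay above wild type without overlap in Aire-/- (813 to 970 CPM against 644 to 782 CPM, 2 of 7 rose and 2 fell). It did so too in Y86C/Y86C (829 to 978 CPM against 674 to 703 CPM, 2 of 5 rose and 3 fell), in C442G/C442G (937 to 1063 CPM against 646 to 834 CPM, 2 of 6 rose and 3 fell) and in -/C313Y (864 to 950 CPM against 673 to 735 CPM, 1 of 7 rose and 3 fell). In C313X/C313X it overlapped wild type (934 to 1053 CPM against 980 to 1546 CPM, 4 of 6 fell). The summed thymocyte level lay below wild type without overlap in Y86C/Y86C (35.6 to 43.7 CPM against 57.1 to 65.04 CPM, 1 of 6 rose and 3 fell), C313X/C313X (64.2 to 81.6 CPM against 144 to 177 CPM, 3 of 9 fell), +/C442G (39.4 to 48.1 CPM against 71.3 to 124 CPM, 2 of 8 fell) and -/C313Y (40.5 to 57.7 CPM against 75.9 to 106 CPM, 1 of 9 fell). The part of these cells in the potassium channel results was not tested.

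Kcnn4, the intermediate-conductance calcium-activated channel of T cells and epithelia, was the member whose direction differed between B6 lines. It rose in Aire-/-, at 36.4, 37.3, 27.2 and 31.8 CPM against 18.6, 23.7 and 21.1 CPM in wild type (log2 change 0.77 ± 0.19 SE, edgeR adjusted p = 0.00187). It fell in Y86C/Y86C, at 9.13, 9.70 and 14.5 CPM against 25.1, 19.2 and 17.04 CPM (-0.69 ± 0.23 SE, edgeR adjusted p = 0.0121). It fell in C442G/C442G too, at 8.69 to 20.1 CPM with a median of 11.5 CPM against 20.6, 20.8 and 22.2 CPM (-0.55 ± 0.20 SE, edgeR adjusted p = 0.0294). In C313X/C313X it was at 14.05, 12.8 and 13.9 CPM against 23.0, 21.9 and 18.6 CPM, with no overlap but no call (-0.42 ± 0.21 SE, edgeR adjusted p = 0.179). In CPM, mutant and wild-type ranges were separate in all 4 lines, above the wild types in the null line and below them in the others. The gap in C442G was narrow, from 20.1 CPM in the highest homozygote to 20.6 CPM in the lowest wild type. It may not hold on the scale of the fit, which uses TMM factors.

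The difference between lines was tested in a joint fit of the 4 B6 tables, where 46 members were tested. All of these tests share the null libraries, so they are not independent of each other. The homozygous effect on Kcnn4 in Y86C minus that of the null allele was -1.35 ± 0.31 SE on the log2 scale (edgeR adjusted p = 0.0123). The same difference was -1.10 ± 0.30 SE for C313X (edgeR adjusted p = 0.037) and -1.27 ± 0.28 SE for C442G (edgeR adjusted p = 0.00634). Kcnj11 was the other member called, with a difference of 1.48 ± 0.34 SE for Y86C (edgeR adjusted p = 0.0111). Its mutant means were alike, at 13.3 CPM in Aire-/- and 13.7 CPM in Y86C/Y86C. The wild-type means were apart, at 13.8 CPM in the null line and 6.23 CPM in the Y86C line. The heterozygotes of these lines were at 9.91 and 9.62 CPM. Against 2 of 46 members called for Y86C and 1 each for C313X and C442G, the shares of all 14547 genes called were 2.0% (1.11% higher and 0.887% lower), 2.69% (1.91% and 0.784%) and 2.91% (1.55% and 1.35%).

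Some of these calls rested on single libraries. The difference in Kcnn4 for Y86C was lost without Aire_wt_430 of the null line, Y86C wild type 1 or Y86C homozygote 4 (adjusted p 0.0507 to 0.077), which left 1 member called. That for C313X was lost without any 1 of 8 libraries (adjusted p 0.0545 to 0.106) (Aire_wt_430, Aire_wt_434, Aire_KO_428 and Aire_KO_429 of the null line, C313X wild type 6, and C313X homozygotes 1, 10 and 14). Without Aire_KO_431 or C313X wild type 2 or 7 the count for C313X was 2. The difference in Kcnn4 for C442G and that in Kcnj11 for Y86C held without each library in turn. For Kcne2, Kcne1l, Kcnk1, Kcnk5, Kcnj3 and Kcnmb4 the differences from the null effect did not pass the test in any of these 3 lines; for Kcnj3 they were 0.22 ± 0.36 SE, -0.83 ± 0.35 SE and -0.26 ± 0.34 SE.

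**Figure D4:**
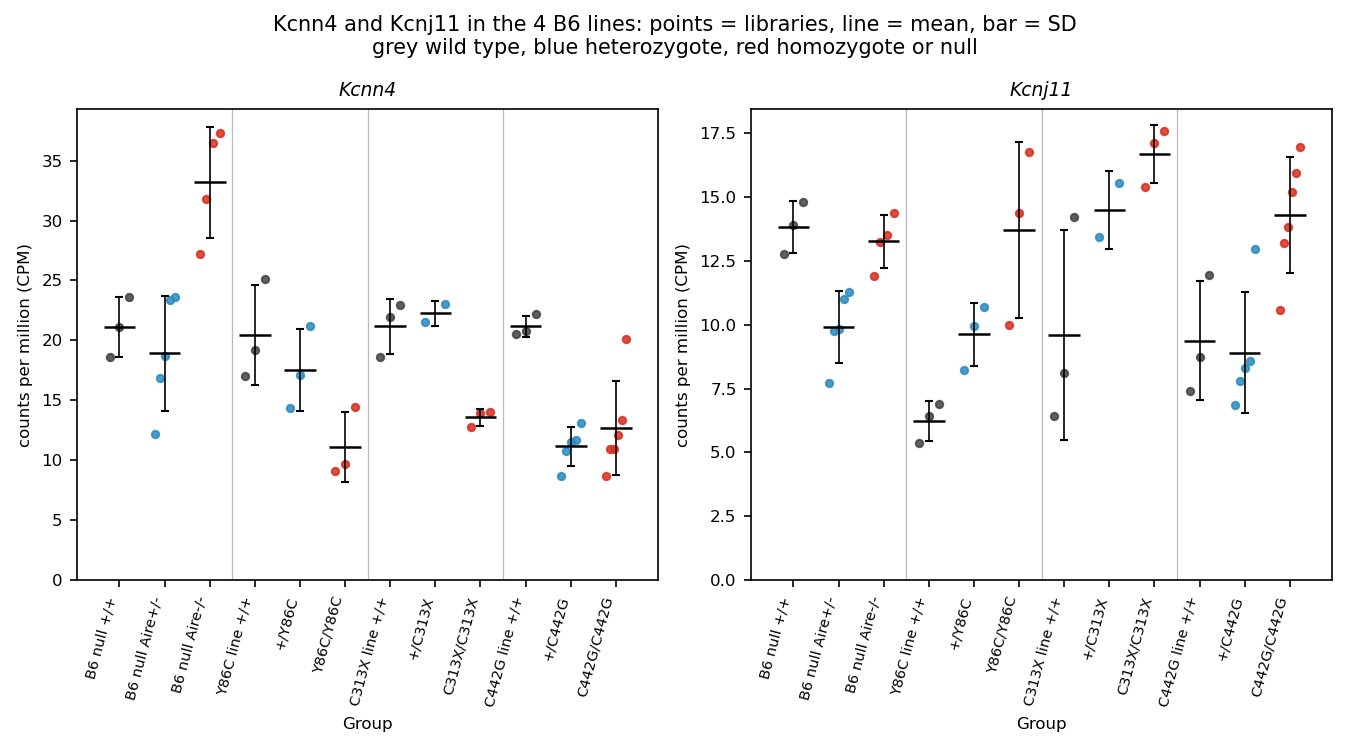
CPM (vertical axis) of Kcnn4 and Kcnj11 in every assigned library (points) of the 4 B6 lines by group (horizontal axis), with the group mean (line) and SD (bar); wild types are grey, heterozygotes blue, homozygotes and null red. Kcnn4 lies at 27.2 to 37.3 CPM in Aire-/- and at 9.13 to 14.5 CPM in Y86C/Y86C, on opposite sides of the wild types of their lines.

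In the B6 heterozygotes the number of members called ran from 0 to 15. In B6 Aire+/- 0 of 28 members were called, beside 0.48% of all genes (0.378% higher and 0.102% lower), and no member had an unadjusted p below 0.05. In +/C313X 0 of 38 were called, beside 0.0%, with 1 member at an unadjusted p below 0.05 (Kcnmb4os2, 4.91 CPM in wild type and 11.9 CPM in +/C313X, adjusted p = 0.998). DESeq2 gave 0 in both. In +/Y86C 1 of 33 was called, beside 3.37% (2.32% higher and 1.04% lower), and 7 had an unadjusted p below 0.05. The called member was Kcne2, at 11.0 ± 2.34 CPM against 21.9 ± 2.93 CPM in wild type (n = 3 each; log2 change -0.98 ± 0.23 SE, edgeR adjusted p = 0.0137). It was lost without wild type 2 or heterozygote 3 or 14 (adjusted p 0.0549 to 0.102) and with DESeq2 (adjusted p 0.0867), and without wild type 1 the count was 2.

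In +/C442G 5 members rose and 10 fell of 35, which is 42.9%, beside 26.5% of all genes (13.1% higher and 13.4% lower). Kcnj3 reached 27.5, 22.9, 20.4, 28.6 and 28.4 CPM, above the wild types (6.28, 12.8 and 13.1 CPM) and overlapping those of C442G/C442G (log2 change over wild type 1.34 ± 0.25 SE, edgeR adjusted p = 0.000203). Kcnn4 was at 8.70 to 13.1 CPM, below every wild type (-0.77 ± 0.22 SE, edgeR adjusted p = 0.00823). Kcnq1 was at 9.62 to 21.9 CPM against 29.6 to 35.8 CPM in wild type (-0.79 ± 0.21 SE, edgeR adjusted p = 0.00487). For these 3 genes the heterozygotes and homozygotes of C442G overlapped.

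Kcne2 in +/C442G was in between, at 4.58, 4.32, 1.49, 2.63 and 3.70 CPM, below every wild type and above every C442G/C442G library (-1.17 ± 0.36 SE, edgeR adjusted p = 0.0154). Its change in +/C442G minus that in Aire+/- was -1.71 ± 0.49 SE (edgeR adjusted p = 0.0252), the only member of 46 called in this difference, beside 5.75% of all genes (2.24% higher and 3.51% lower). The call of the difference was lost without null-line heterozygote 440, Aire_wt_432, Aire_wt_434 or C442G wild type 89 (adjusted p 0.0601 to 0.0945), and without C442G wild type 86 or heterozygote 85 or 91 the count was 2. In the same difference for +/Y86C, 0 of 46 members were called, beside 0.0%; its value for Kcne2 was -1.50 ± 0.46 SE. Kcnk5 (-0.73 ± 0.27 SE, edgeR adjusted p = 0.0454) and Kcnt1, a sodium-activated channel (-1.60 ± 0.47 SE, edgeR adjusted p = 0.011), were also lower in +/C442G. Of these calls in +/C442G, that of Kcne2 was lost without wild type 89 (adjusted p 0.065) and that of Kcnt1 without the same library (adjusted p 0.0921).

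On the NOD background, V303M gave no call. In V303M/V303M 0 of 42 members were called, beside 0.0657% of all genes (0.0146% higher and 0.0511% lower), and in +/V303M 0 of 42, beside 0.0%; DESeq2 also gave 0. At an unadjusted p below 0.05 there were 4 members in V303M/V303M and 0 in +/V303M. Among the 4 was Kcne2, at 8.36, 5.75 and 2.98 CPM against 21.5, 10.8 and 12.1 CPM in wild type. The libraries did not overlap, but the log2 change of -1.35 ± 0.34 SE did not pass the correction (edgeR adjusted p = 0.210).

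In NOD Aire-/- against NOD Aire+/-, 4 members rose and 8 fell of 38, which is 31.6%, beside 13.3% of all genes (4.21% higher and 9.11% lower); without Aire-/- library 404 the count was 7. Kcnk5 was at 8.68, 5.14 and 7.16 CPM against 19.1, 20.1 and 20.04 CPM (log2 change -1.35 ± 0.31 SE, edgeR adjusted p = 0.00292). Kcnmb4 was at 63.4, 61.2 and 55.3 CPM against 31.7, 36.0 and 36.6 CPM (0.94 ± 0.22 SE, edgeR adjusted p = 0.00414). Both genes were apart in the 2 genotypes and in the direction of the B6 lines. Kcnj3 (22.6, 22.9 and 13.7 CPM against 13.5, 11.7 and 13.3 CPM; adjusted p = 0.180) and Kcnk1 (7.38, 6.72 and 3.25 CPM against 10.3, 11.0 and 8.12 CPM; adjusted p = 0.413) did not pass the edgeR test, although neither overlapped. Here the control was the heterozygote, not a wild type. Summed thymocyte markers were lower in the same Aire-/- libraries (40.7 to 76.4 CPM against 108 to 231 CPM, 4 of 9 fell), and summed macrophage and dendritic markers higher (952 to 1061 CPM against 801 to 931 CPM, 1 of 7 rose and 3 fell). Their part in these results was not tested.

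Kcne2 fell in NOD Aire-/- with a ratio of 29.4 from 1 count (counting interval 5.02 to 1188; edgeR adjusted p = 0.0198), a call lost without Aire+/- library 395 or Aire-/- library 404 or 405 (adjusted p 0.0777 to 0.106). Kcnmb2, another beta subunit of the large-conductance channel, had no count in the Aire-/- libraries and was at least 10.5-fold lower (48 counts in Aire+/-; edgeR adjusted p = 0.0015). The silent subunit Kcns1 had none either and was at least 4.14-fold lower (edgeR adjusted p = 0.0207). Kcnk6 rose, at 140, 131 and 171 CPM against 94.9, 103 and 98.6 CPM (0.72 ± 0.18 SE, edgeR adjusted p = 0.00705).

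In +/C313Y 3 members rose and 10 fell of 38, which is 34.2%, beside 17.4% of all genes (6.36% higher and 11.0% lower); 8 were called when only the compared groups were fitted. Kcnk3 was at 0.715, 0.380, 0.405 and 0 CPM against 3.93, 6.57, 9.43, 6.80 and 5.54 CPM in wild type (log2 change -3.84 ± 0.59 SE, edgeR adjusted p = 2.19e-05). Kcnk5 fell as well, at 1.79, 5.70, 2.84 and 4.01 CPM against 21.4, 21.1, 21.9, 11.0 and 13.6 CPM (-2.21 ± 0.28 SE, edgeR adjusted p = 1.49e-06). Neither gene overlapped between the genotypes. Kcnj3 rose, from 1.62 to 7.86 CPM in wild type to 8.83 to 25.04 CPM (1.90 ± 0.35 SE, edgeR adjusted p = 0.0002). Its wild types were split by title, at 7.86 and 6.86 CPM in those that carry C313T and at 2.26, 1.62 and 2.46 CPM in the others. Every +/C313Y library lay above all of them.

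The wild types of this comparison were not alike. Kcne2 was at 10.5 and 15.1 CPM in the wild types whose titles carry C313T and at 1.89, 1.94 and 3.70 CPM in the other 3. It was called lower in +/C313Y (-2.80 ± 0.72 SE, edgeR adjusted p = 0.00629), but not without those 2 wild types (-1.33, adjusted p = 0.185). Kcnk6 was at 96.9 and 104 CPM in the same 2 wild types and at 60.7, 58.9 and 59.7 CPM in the others. Its rise in +/C313Y (0.88 ± 0.15 SE, edgeR adjusted p = 8.38e-05) was not called against all 8 NOD wild types of the table (0.47, adjusted p = 0.129). Kcnma1, which rose here (0.78 ± 0.22 SE, edgeR adjusted p = 0.0127), was split likewise, at 55.9 and 54.6 CPM against 19.6, 21.7 and 31.4 CPM among wild types, and was lost without +/C313Y library 50 (adjusted p 0.0794) and with only the compared groups fitted (0.0989).

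In -/C313Y 6 members rose and 11 fell of 38, which is 44.7%, beside 22.7% of all genes (9.83% higher and 12.9% lower); 11 were called when only the compared groups were fitted. Kcnj3 was at 16.2, 13.7 and 11.2 CPM against 4.44, 2.83 and 1.93 CPM in wild type (log2 change 2.27 ± 0.44 SE, edgeR adjusted p = 0.000376). Kcne1l was at 0.280, 0.822 and 1.01 CPM against 8.88, 10.8 and 25.4 CPM (-4.27 ± 0.68 SE, edgeR adjusted p = 3.82e-05). Kcnk5 was at 2.24, 3.01 and 2.71 CPM against 9.18, 13.0 and 10.2 CPM (-1.86 ± 0.35 SE, edgeR adjusted p = 0.000262). None of these 3 genes overlapped between the genotypes. The voltage-gated Kcnh4 rose (1.35 ± 0.28 SE, edgeR adjusted p = 0.0007), and the sodium-activated Kcnt1 fell with a ratio of 15.1 from 2 counts (counting interval 3.78 to 131). The rise of Kcnk6 (0.53 ± 0.18 SE, edgeR adjusted p = 0.0346) was lost without any 1 of the 6 libraries compared (adjusted p 0.0599 to 0.0911).

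Over the 8 comparisons with more than 1 call, 34 members were called at least once, 9 of them only higher, 23 only lower and 2 both ways (Kcnn4 and Kcnma1), and 11 were tested but not called in any. Kcne2, Kcne1l and Kcnk5 were called lower in all 8, and Kcnj3, Kcnk6, Kcnmb4 and Kcnmb4os2 higher in 7. The call of Kcnmb4 in -/C313Y was lost without any 1 of 4 libraries (edgeR adjusted p 0.0528 to 0.0914). Its call in +/C442G was lost without wild type 88 (0.0787). That of Kcnmb4os2 in +/C442G was lost without any 1 of 3 libraries (edgeR adjusted p 0.0582 to 0.113). It was also lost with DESeq2 (adjusted p 0.0518) and with only the compared groups fitted (edgeR adjusted p 0.0525). C442G/C442G and +/C442G share their wild types, and comparisons within a table share its estimate of spread, so the 8 are not all separate observations. The 29 members tested in no table had at most 36 counts in any library, among them Kcnj13 (highest level 7.58 CPM) and Kcnk2 (8.28 CPM). They were left out by the filter on low counts and were not tested in these fits.

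Among proteins that assemble with these channels, Abcc8, the sulphonylurea receptor that joins Kcnj11, rose in Aire-/- from 112 to 156 CPM (log2 change 0.57 ± 0.11 SE, edgeR adjusted p = 0.000144), and Dpp10, a partner of voltage-gated channels, from 18.8 to 34.7 CPM (0.97 ± 0.22 SE). That was 2 of 4 partners tested in Aire-/-, with none lower, beside 17.7% of all genes called higher. In Y86C/Y86C and C442G/C442G 3 of 3 rose, beside 21.7% and 19.5% of all genes, and in C313X/C313X 3 of 4, beside 7.85%.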

How the data were processed

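Bulk MARS-seq libraries of sorted thymic mTEChi cells were deposited by the authors as 6 tables of raw read counts per gene. The submitters' processing notes name mm10 as the build and, among tools, the aligner STAR 2.4.2a, the counter HTSeq, and DESeq2, cutadapt and bcl2fastq; their settings, the annotation and the use of strand are not given in the sources used here. The deposited counts were used as they stand, the authors' own normalised values and tests were not.

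CPM were computed over all genes of a table, without TMM factors. Each table was fitted with edgeR 4.0.16 (R 4.3.3): TMM factors, filterByExpr on groups, a robust quasi-likelihood fit of all groups, and Benjamini-Hochberg adjustment over all tested genes, with calls at an adjusted p below 0.05. Differences between B6 lines came from 1 joint fit of 4 tables. DESeq2 1.42.0, RLE factors, no filter, fits of the compared groups alone and leaving out each library were alternatives. The fit was tested on simulated data. Counting intervals are at 95%, and a count of 0 was bounded at 3 counts over the group.

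Members and lists were chosen with earlier results of these data known. Named genes were the 10 most abundant in wild types, up to 6 called each way with the largest changes and at least 2 CPM in the homozygous and NOD comparisons, those called in heterozygotes or between lines, and those called the same way in all 4 B6 homozygous groups. A further few are named for the counts they belong to and were chosen after their values were seen. Positions are GENCODE vM21 on GRCm38. Of 74 libraries, 1 whose labels disagree (a wild-type title with an Aire -/- genotype) entered no comparison.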

Additional observations from a re-analysis of the deposited data

Results flagged for a closer look

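In C442G/C442G, library 80 stood apart for Kcnmb4os2, the transcript antisense to Kcnmb4, at 15.4 CPM, where the other 5 libraries of the group were at 11.3 to 12.6 CPM. Of 40 sets examined for a stray library, each of them 1 gene in 1 group of 4 to 10 libraries, it was the only one marked, and chance marks about 1 in 20.

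The homozygous effect on Kcnn4 differed between the null allele and each other B6 allele in the joint fit. The differences from the null effect were -1.35 (Y86C), -1.10 (C313X) and -1.27 (C442G) on the log2 scale, with edgeR adjusted p = 0.0123, 0.037 and 0.00634. The homozygous effect on Kcnj11 differed from the null effect by 1.48 in Y86C (edgeR adjusted p = 0.0111), where the wild-type means of the lines differed and the mutant means were alike. The heterozygous effect on Kcne2 differed from that of the null allele by -1.71 in C442G (edgeR adjusted p = 0.0252). All 5 differences use the libraries of the null line.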

How the results depend on the processing

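No named change called in the results changed direction under any alternative run. Among values of named members, 14 lost their call under a setting other than leaving out a library, and 83 did when a library was left out, where 709 did not. The count of members called in Y86C/Y86C was 42 with no filter on low counts (25 with it), that in +/Y86C was 0 with DESeq2 (1 with edgeR), and those in +/C313Y and -/C313Y were 8 and 11 when only the compared groups were fitted (13 and 17). Leaving out each library gave 14 to 19 calls in B6 Aire-/-, 22 to 27 in Y86C/Y86C, 0 to 2 in +/Y86C, 11 to 15 in C313X/C313X, 20 to 22 in C442G/C442G, 11 to 15 in +/C442G, 7 to 11 in NOD Aire-/-, 10 to 16 in +/C313Y and 13 to 16 in -/C313Y. For the differences from the null effect it gave 1 to 3 (Y86C), 0 to 2 (C313X), 1 to 1 (C442G) and 0 to 2 (+/C442G). It gave 0 throughout for Aire+/-, +/C313X, both V303M groups and the +/Y86C difference. The causes were not tested. Where 1 library was left of a group of 2, it was assumed to vary like the other groups.

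Wild types and mutants of the -/C313Y comparison share replicate numbers 1 to 3. Deviations of same-numbered libraries had correlations of 0.0729, -0.0546 and 0.187, and those of differently numbered libraries ran from -0.168 to 0.110. With 3 libraries in each group, these values cannot settle whether the numbers pair the libraries. With a replicate block, 15 members were called (9 higher and 6 lower, against 6 and 11).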

Other observations

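The library titled as wild type but labelled Aire -/- by genotype, in the table of the B6 null line, had Kcne2 at 4.47 CPM, Kcne1l at 11.4 CPM, Kcnk1 at 1.99 CPM and Kcnk5 at 7.95 CPM. It had Kcnj3 at 7.45 CPM, Kcnmb4 at 22.4 CPM, Kcnmb4os2 at 5.47 CPM and Kcnh3 at 132 CPM. Its Kcnj11, at 6.96 CPM, lay below the wild types (12.8 to 14.8 CPM) and the Aire-/- libraries (11.9 to 14.4 CPM) of that line. The library belongs to no group here.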
